A study of Mus musculus with 6 samples.

Results

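Immortalized mouse embryonic fibroblasts that lacked nardilysin and were given it back (Nrdc-/-WT iMEF) were set against wild-type fibroblasts (Nrdc+/+ iMEF), gene by gene, to find what returning Nrdc does not restore. Members were chosen by level, with a minimum of 0.5 RPKM (reads scaled to exon length and library size) in the mean over the 4 libraries of these groups, which 11549 of the 22369 genes listed passed. Nrdc-/-WT iMEF are C57BL/6 cells whose own Nrdc gene is deleted and that carry wild-type Nrdc on a lentivirus, used within a few passages of infection. Nrdc+/+ iMEF are a separately immortalized C57BL/6 line with its Nrdc gene intact. Nrdc-/- iMEF, the deleted line that received the virus, supply side values. Each group holds 2 libraries of poly(A) RNA from cells growing asynchronously in low-glucose medium with serum. The study's methods call the cells used biological replicates, but neither they nor the labels say that the libraries of a group are separate cultures. The p-values thus measure only the spread between these libraries, and how much of it is technical was not stated. Nrdc-/- cells that took up an empty virus are not among the libraries, so that infection and Nrdc cannot be told apart, and neither can genotype and the history of each immortalized line. RNA came from whole cultures, in which fewer cells expressing a gene and less RNA per cell cannot be told apart.

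Nardilysin is a zinc metallopeptidase of the M16 family. On the secretory route and at the cell surface it enhances the shedding of membrane-anchored proteins by ADAM proteases, among them the growth factor precursor HB-EGF and the amyloid precursor protein. In the nucleus it binds histone H3 dimethylated at lysine 4 and associates with the NCoR/SMRT corepressors and histone deacetylase HDAC3, through which it can modulate transcription. Fibroblasts deposit collagen, pull on it through actomyosin, and carry a Hox code and other transcription factors that record the part of the embryo they came from.

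The reads counted over the listed genes came to 19538722 and 17077684 in the Nrdc-/-WT libraries and 19457270 and 19764315 in the Nrdc+/+ libraries, against 16385565 and 17081955 in the Nrdc-/- libraries. Nrdc itself, listed as Nrd1 (chr4:108673260-108734382, mm9, plus strand), had 5.89 and 5.397 RPKM in Nrdc-/-WT iMEF, against 27.9 and 28.9 RPKM in Nrdc+/+ iMEF. Both Nrdc-/-WT libraries lay below both Nrdc+/+ libraries, at 19.9% of their mean level, with a log2 fold change of -2.28 (limma adjusted p = 1.41e-07, standard error 0.086). In Nrdc-/- iMEF the gene still had 1.53 and 1.51 RPKM, so that the Nrdc-/-WT mean was 372% of that in Nrdc-/- iMEF. The RPKM of Nrd1 is per length of the annotated exons of the gene, and whether the virus carries the untranslated ends was not stated, which bears on this value. The value is of RNA. For the protein, the study reported similar levels in Nrdc-/-WT and Nrdc+/+ iMEF by immunoblot and immunostaining. Vim, the fibroblast intermediate filament vimentin, had 2118 and 2074 RPKM in Nrdc-/-WT iMEF, against 1213 and 1113 RPKM in Nrdc+/+ iMEF. Of 9 tested fibroblast markers, 6 were higher in Nrdc-/-WT iMEF and 0 lower, by the thresholds given below. The share that differed was 66.7%, near the 60.6% of all tested genes, of which 29.3% were higher and 31.3% lower. The summed levels of the markers were 6026 and 5998 RPKM in Nrdc-/-WT libraries and 4128 and 3699 RPKM in Nrdc+/+ libraries. No epithelial or skeletal muscle marker reached the expression minimum.

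Most genes differed. A gene was called when the limma adjusted p was under 0.05 and the fold at least 1.3, with every fold taken as Nrdc-/-WT over Nrdc+/+ on log2(RPKM + 0.25). Of the 11549 genes, 3382 (29.3%) were higher and 3611 (31.3%) lower, 60.6% together, while 1450 were over 2-fold higher and 1283 over 2-fold lower. The typical shift was small, with quartiles of -0.53 and 0.51 log2 units around a median of -0.033, and the tails were long, with 223 genes over 10-fold higher and 126 over 10-fold lower. The tested genes included 50 with 0 reads in both Nrdc-/-WT libraries and 52 with 0 reads in both Nrdc+/+ libraries. The libraries of the groups did not overlap in 9992 genes, 86.5% of those tested. Of the 4556 genes not called, 1844 had a 95% interval that lay wholly inside 1.3-fold. For the others the interval reached past 1.3-fold in at least 1 direction, so that similar levels were not shown. On the same genes, 42.5% were called between Nrdc-/-WT and Nrdc-/- iMEF (21.1% higher and 21.4% lower) and 61.8% between Nrdc+/+ and Nrdc-/- iMEF (31.2% higher and 30.6% lower). These comparisons share libraries, and their counts are given side by side only.

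The differences were not spread evenly over the genome. The median over the genes of a chromosome was -0.58 log2 units on chromosome 10 (559 genes, 11.99% higher and 59.4% lower), -0.56 on chromosome 12 (413 genes, 12.8% and 59.8%), -0.46 on chromosome 18, -0.43 on chromosome 13 and -0.36 on chromosome 1. Against the 29.3% higher and 31.3% lower of all genes, chromosome 17 lay the other way, at 0.34 (583 genes, 46.3% higher and 13.4% lower), followed by chromosome 16 at 0.31 and chromosomes 6 and 11 at 0.29 each. Both Nrdc-/-WT libraries showed it, with -0.57 and -0.58 on chromosome 10 and 0.34 and 0.35 on chromosome 17 relative to the mean of the Nrdc+/+ libraries. On chromosomes 10 and 12 the shift ran along the whole length, counting 20 Mb windows of at least 20 tested genes. All 7 windows on chromosome 10 lay between -0.68 and -0.52 and all 6 on chromosome 12 between -0.63 and -0.53. All windows lay below 0 on chromosomes 1, 13 and 18 and above 0 on chromosomes 16 and 17. Chromosomes 6 and 11 were uneven, with windows from -0.33 to 0.58 and from -0.0066 to 0.56. The side values against Nrdc-/- iMEF differed between chromosomes. Chromosome 10 stood at -0.14 in Nrdc-/-WT over Nrdc-/- iMEF and at 0.44 in Nrdc+/+ over Nrdc-/- iMEF, so that the cells given Nrdc lay near the line they were made from. Chromosome 1 stood at -0.37 and 0.00, so that there the cells given Nrdc differed from both other lines. The files used here do not measure DNA copy number, and its part in these shifts was not tested.

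**Figure D1:**
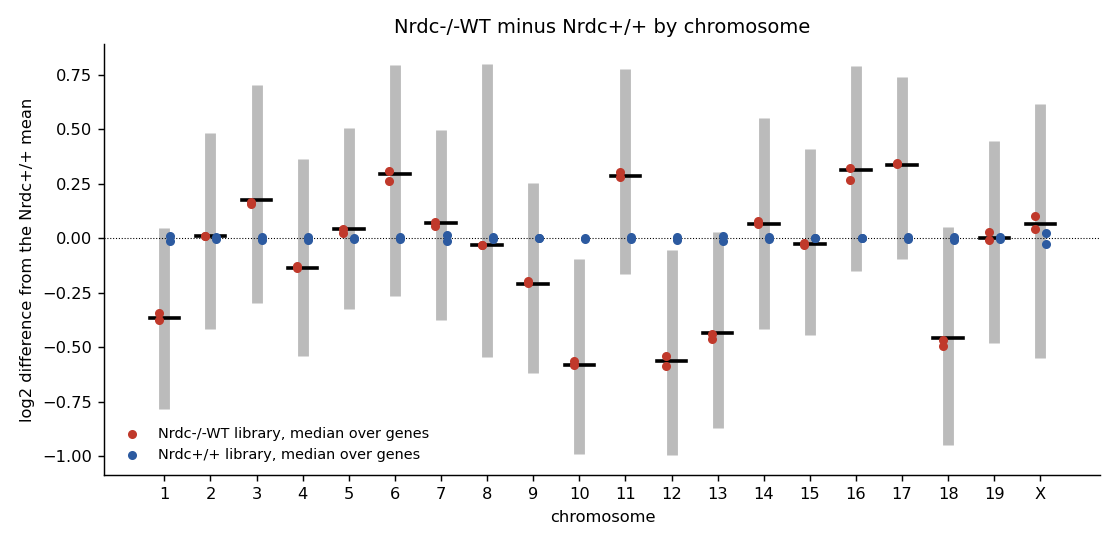
Log2 difference in expression from the Nrdc+/+ mean (vertical) by chromosome (horizontal), over 11549 tested genes. Red dots are the medians over genes of each Nrdc-/-WT library, blue dots those of each Nrdc+/+ library, black lines the medians of Nrdc-/-WT over Nrdc+/+ and grey bars the quartiles over genes; chromosomes 10 and 12 sit near -0.58 and -0.56 and chromosome 17 at 0.34, with the red dots of a chromosome close together.

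Shorter stretches stood out within chromosomes. They were chosen after their values were seen, as runs of at least 10 genes in which the median over 21 neighbouring genes passed 0.8 log2 units in size, and carry no test. The longest lay on chromosome 8 (chr8:81033234-98350033, mm9, from Slc10a7 to Gm10094), where 122 of 141 tested genes were higher in Nrdc-/-WT iMEF, 6 were lower and 13 were not called. Its median was 1.24 and 1.29 log2 units in the Nrdc-/-WT libraries, against -0.02 and 0.02 in the Nrdc+/+ libraries, all relative to the Nrdc+/+ mean. The 20 Mb windows after it on chromosome 8 had medians of -0.48 and -0.57. Within the run, Nrdc-/-WT over Nrdc-/- iMEF stood at -0.05 and Nrdc+/+ over Nrdc-/- iMEF at -1.31, so that the wild-type line was the one apart. It holds 11 genes that are named here or belong to the gene lists below, 10 of them list members, among them the gelatinase gene Mmp2, the chaperone gene Calr, the chemokine gene Cx3cl1, the homeobox genes Irx3 and Irx5 and the retinoblastoma relative Rbl2. A run on chromosome 17 (chr17:34092757-34783269, Vps52 to Fkbpl) holds H2-K1, Psmb8, Tap1 and Tap2 of the mouse major histocompatibility complex, with 16 of 17 genes higher, 0 lower and a median of 1.36. In it Nrdc-/-WT over Nrdc-/- iMEF stood at -0.06 and Nrdc+/+ over Nrdc-/- iMEF at -1.56. On chromosome 10 a run from Bend3 to Gopc had 11 of 15 lower and a median of -0.92. When each 20 Mb window was centred on its own median, 3159 genes were higher and 3218 lower, and 5190 of the 6993 calls remained in the same direction while 38 turned.

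**Figure D2:**
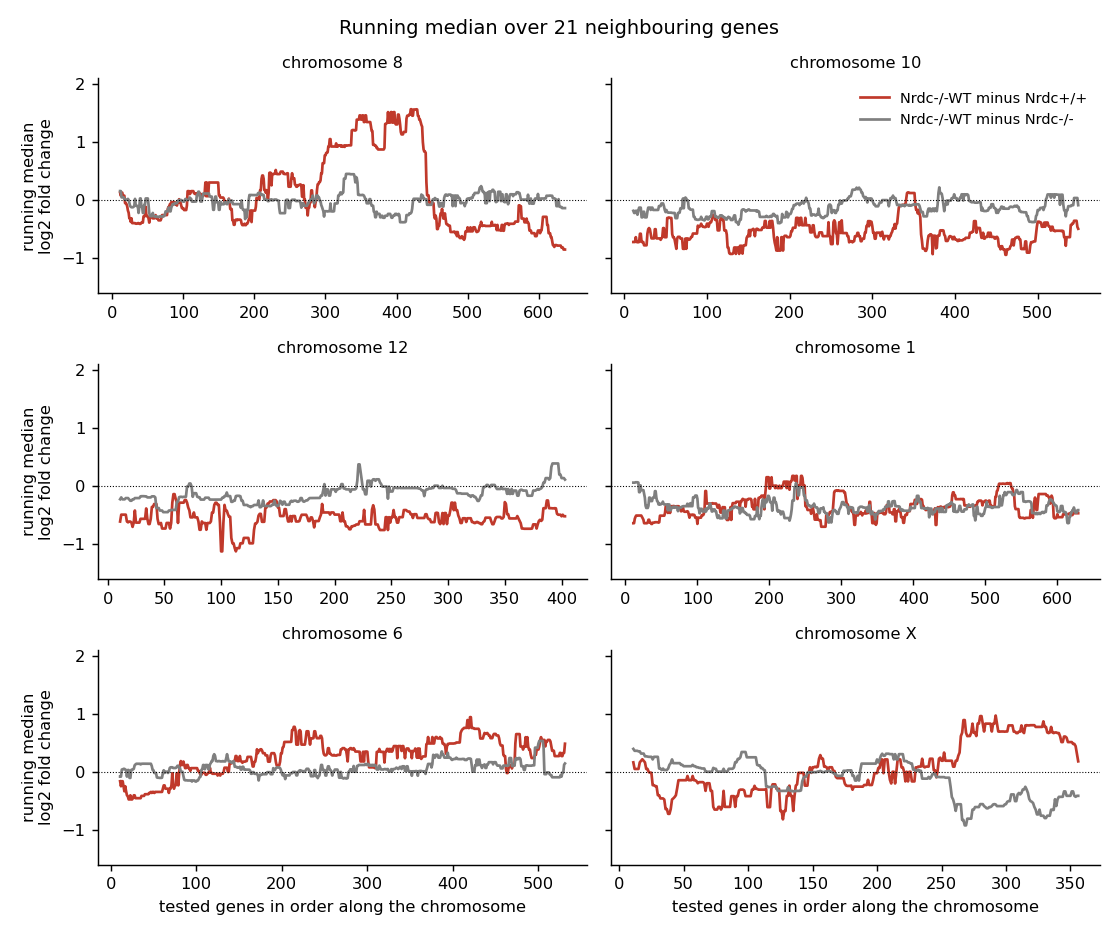
Running median of the log2 fold change over 21 neighbouring tested genes (vertical) in gene order (horizontal) on chromosomes 8, 10, 12, 1, 6 and X, in red for Nrdc-/-WT over Nrdc+/+ and in grey for Nrdc-/-WT over Nrdc-/-. On chromosome 8 the red line stands above 0.8 through a run of 141 genes with a median of 1.27 while the grey line stays near 0, and on chromosome 12 the red line lies below 0 throughout.

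The largest differences were of genes silent or nearly so in 1 line. Cthrc1 (chr15:38908478-38918667), a secreted protein of remodelling matrix, had 490.2 and 472 RPKM in Nrdc-/-WT iMEF, against 0 reads in either Nrdc+/+ library, and was at least 9737-fold higher when the floor of 3 reads over the group stood for the zeros. Igfbp2, an insulin-like growth factor binding protein, had 156 and 169 RPKM in Nrdc-/-WT iMEF, against 0 reads in Nrdc+/+ iMEF, at least 4099-fold higher. Mmp2 had 324 and 325 RPKM in Nrdc-/-WT iMEF, against 0.679 and 0.893 RPKM in Nrdc+/+ iMEF, a difference of 8.300 log2 units (standard error 0.093, limma adjusted p = 4.56e-10). The libraries of the groups did not overlap. Dkk3, a Dickkopf family member, had 87.2 and 84.4 RPKM in Nrdc-/-WT iMEF, against 0.0732 and 0 RPKM in Nrdc+/+ iMEF (8.24, standard error 0.11, limma adjusted p = 1.23e-09). Ptgis, prostacyclin synthase, had 52.9 and 52.4 RPKM in Nrdc-/-WT iMEF, against 0.0574 and 0 RPKM in Nrdc+/+ iMEF, a ratio of 1834 whose 95% exact counting interval ran from 627 to 8896, as the Nrdc+/+ libraries held 3 reads (limma adjusted p = 1.30e-09). Among the 10 genes of highest fold, taken from those averaging 5 RPKM or more, were also Anpep, Gbp2, Peg10, Mgp (matrix Gla protein) and Pdgfrl. At the other end, Sprr1a (chr3:92287874-92289817), a small proline-rich protein of the cornified envelope, had 0 reads in either Nrdc-/-WT library, against 95.9 and 91.03 RPKM in Nrdc+/+ iMEF, at least 1004-fold lower. Dpysl3, a neuronal cytoskeletal regulator, had 0.142 and 0.07699 RPKM in Nrdc-/-WT iMEF, against 94.7 and 86.5 RPKM in Nrdc+/+ iMEF. Crabp1, a retinoic acid binding protein, F11r, the junctional adhesion molecule A, Serpinb6b, Gpnmb, Hoxc6, Hoxc8 and Ccl2 were also among the genes of lowest fold. Fitted fold changes of genes so near 0 depend on the added 0.25 RPKM.

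The level in the Nrdc-/- line was set beside each call. Of the 4631 called genes that averaged 5 RPKM or more and had no overlap between libraries, 1127 of the 2078 higher ones and 1400 of the 2553 lower ones had a Nrdc-/-WT mean within 1.3-fold of the Nrdc-/- mean, or 54.2% and 54.8%. Among all 7859 tested genes averaging 5 RPKM or more the share was 59.3%, so that a level near that of Nrdc-/- iMEF was not particular to the called genes. The measured values themselves choose this set and the sets that follow, so that they are a description. Anpep (chr7:86966689-86993096), aminopeptidase N, had 83.00 and 81.4 RPKM in Nrdc-/-WT iMEF and 0 reads in Nrdc+/+ iMEF, with 79.3 and 81.5 RPKM in Nrdc-/- iMEF. Dkk3 had 98.98 and 102 RPKM and Ptgis 43.8 and 47.8 RPKM in Nrdc-/- iMEF, close to their levels after Nrdc was returned. Abi3bp, an extracellular matrix protein, had 32.98 and 32.4 RPKM in Nrdc-/-WT iMEF, against 0 reads in Nrdc+/+ iMEF, and 28.9 and 28.1 RPKM in Nrdc-/- iMEF. Rtbdn, in the chromosome 8 run, had 27.3 and 29.02 RPKM in Nrdc-/-WT iMEF, against 0 reads in Nrdc+/+ iMEF. On the lower side Sprr1a had 0 reads in Nrdc-/- iMEF as well, and Crabp1 had 0 and 0.134 RPKM in Nrdc-/-WT iMEF, against 47.6 and 37.8 RPKM in Nrdc+/+ iMEF, and 0 reads in Nrdc-/- iMEF. F11r had 0 and 0.0403 RPKM in Nrdc-/-WT iMEF, against 30.5 and 33.6 RPKM in Nrdc+/+ iMEF, and 0 reads in Nrdc-/- iMEF. For these genes the cells given Nrdc lay beside the line they were made from, and the wild-type line stood apart.

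Another set, drawn from the same 4631 called genes, lay apart from both other lines. Of the 2078 higher genes, 650 also stood above the Nrdc-/- line, and of the 2553 lower genes, 801 also stood below it. For scale, 21.1% of all tested genes were called above the Nrdc-/- line in the cells given Nrdc, and 21.4% below it. These shares are of all tested genes, without the limits on level and overlap that the sets carry. Whether a set of this size is more than such shares would give was not tested. Dlk1 (chr12:110691033-110701546), an imprinted inhibitor of adipocyte differentiation, had 36.9 and 37.8 RPKM in Nrdc-/-WT iMEF, against 0.365 and 0.548 RPKM in Nrdc+/+ iMEF, and 0 reads in Nrdc-/- iMEF. Igfbp2 had 13.7 and 14.2 RPKM in Nrdc-/- iMEF, so that it was highest in the cells given Nrdc. Hspb1, a small heat shock protein, had 19.2 and 21.7 RPKM in Nrdc-/-WT iMEF, against 0.0953 and 0 RPKM in Nrdc+/+ iMEF, and 0 reads in Nrdc-/- iMEF. Foxa1, a forkhead pioneer factor, had 13.3 and 10.6 RPKM in Nrdc-/-WT iMEF, against 0.0154 and 0 RPKM in Nrdc+/+ iMEF, and 0.943 and 0.727 RPKM in Nrdc-/- iMEF. Angpt1, the angiopoietin that activates the Tie2 receptor, had 11.02 and 10.1 RPKM in Nrdc-/-WT iMEF, against 0.623 and 0.865 RPKM in Nrdc+/+ iMEF, and 0.163 and 0.1296 RPKM in Nrdc-/- iMEF. On the lower side, Spp1, the matrix phosphoprotein osteopontin, had 26.2 and 24.98 RPKM in Nrdc-/-WT iMEF, against 239.9 and 240.0 RPKM in Nrdc+/+ iMEF, and 484 and 454 RPKM in Nrdc-/- iMEF. Slc2a5, a fructose transporter, had 0.0414 and 0 RPKM in Nrdc-/-WT iMEF, against 12.7 and 13.4 RPKM in Nrdc+/+ iMEF, and 24.96 and 25.9 RPKM in Nrdc-/- iMEF. Cdsn, a desmosomal protein, had 1.68 and 1.52 RPKM in Nrdc-/-WT iMEF, against 27.97 and 24.4 RPKM in Nrdc+/+ iMEF, and 51.8 and 48.4 RPKM in Nrdc-/- iMEF. Capn6 and the stress transcription factor Atf3 were the other members named on this side, with Atf3 at 2.55 and 1.81 RPKM in Nrdc-/-WT iMEF, against 16.9 and 15.2 RPKM in Nrdc+/+ iMEF, and 13.1 and 11.8 RPKM in Nrdc-/- iMEF.

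A few genes that differ most between Nrdc+/+ and Nrdc-/- iMEF had Nrdc-/-WT means within 1.3-fold of wild type. Cdkn2a, which encodes the inhibitors p16 and p19Arf, had 415 and 437 RPKM in Nrdc-/-WT iMEF, against 407 and 386 RPKM in Nrdc+/+ iMEF, and 5.78 and 5.75 RPKM in Nrdc-/- iMEF. Its fold change against wild type was 0.11 (95% interval -0.030 to 0.24, limma adjusted p = 0.137). Mtap, its neighbour, had 59.9 and 56.1 RPKM in Nrdc-/-WT iMEF, against 68.4 and 69.6 RPKM in Nrdc+/+ iMEF, and 0.752 and 1.16 RPKM in Nrdc-/- iMEF. Cdkn2b, the neighbour on the other side, which encodes the inhibitor p15 and was chosen after its values were seen, was instead above wild type. It had 70.7 and 75.4 RPKM in Nrdc-/-WT iMEF, against 36.2 and 36.7 RPKM in Nrdc+/+ iMEF, and 0.913 and 1.23 RPKM in Nrdc-/- iMEF. Against wild type the log2 fold change was 0.997 (limma adjusted p = 6.05e-05). Echdc2 had 8.596 and 7.33 RPKM in Nrdc-/-WT iMEF, against 8.204 and 7.67 RPKM in Nrdc+/+ iMEF, and 0.0758 and 0.0965 RPKM in Nrdc-/- iMEF. Among genes high in Nrdc-/- iMEF, Tspan15, a tetraspanin that regulates ADAM10, had 6.61 and 7.09 RPKM in Nrdc-/-WT iMEF, against 6.104 and 6.18 RPKM in Nrdc+/+ iMEF, and 42.9 and 43.7 RPKM in Nrdc-/- iMEF. The endoplasmic reticulum protein Sdf2l1 had 17.1 and 12.3 RPKM in Nrdc-/-WT iMEF, against 18.6 and 17.05 RPKM in Nrdc+/+ iMEF, and 90.2 and 91.5 RPKM in Nrdc-/- iMEF. The ephrin gene Efnb1 had 6.74 and 5.85 RPKM in Nrdc-/-WT iMEF, against 5.15 and 5.01 RPKM in Nrdc+/+ iMEF, and 23.8 and 23.9 RPKM in Nrdc-/- iMEF. The 95% interval of the difference from wild type was -0.013 to 0.31 for Tspan15, -0.59 to 0.017 for Sdf2l1, 0.092 to 0.495 for Efnb1 and -0.57 to 0.074 for Mtap. The intervals of Sdf2l1, Efnb1 and Mtap reach past 1.3-fold, and for them a level like that of wild type was not shown. Tspan15 lies on chromosome 10 and was called higher once its window was centred (0.71), and Sdf2l1 was then called lower (-0.42).

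**Figure D3:**
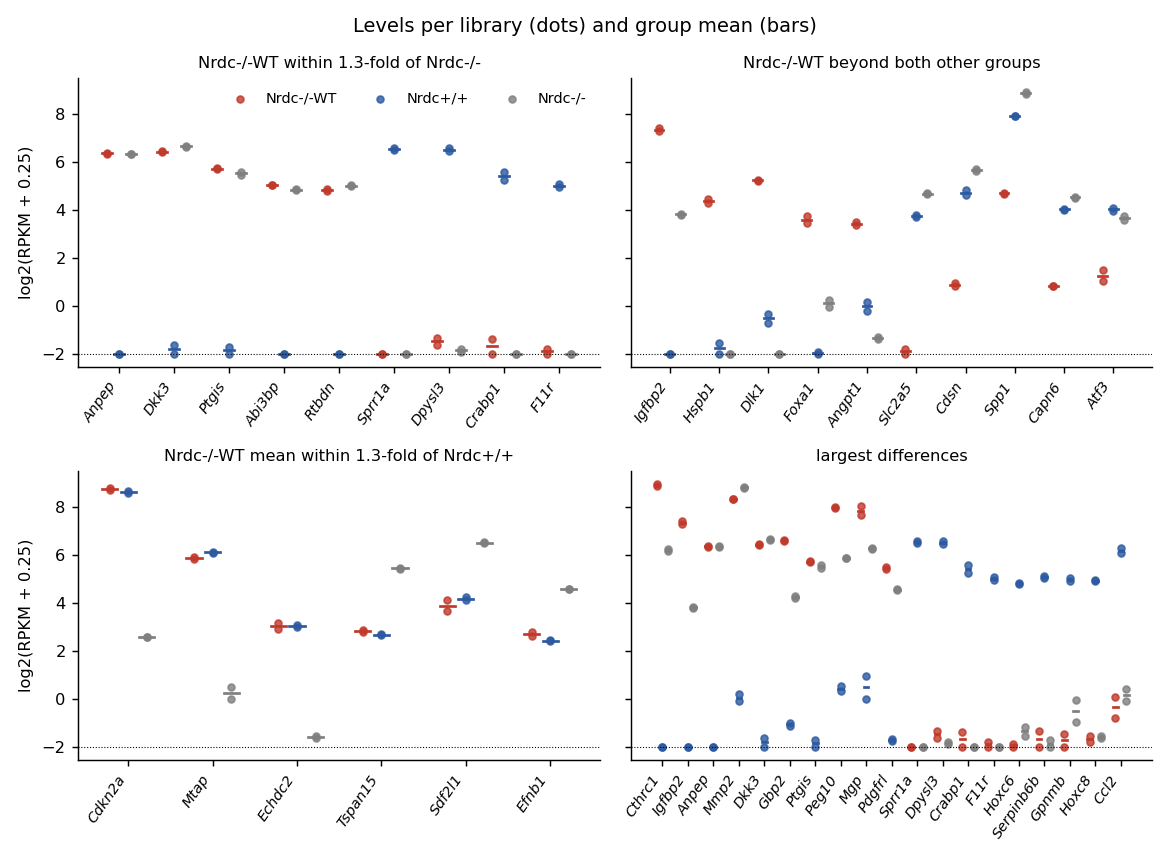
Log2(RPKM + 0.25) of named genes (vertical) in each library, red for Nrdc-/-WT, blue for Nrdc+/+ and grey for Nrdc-/-, with bars at the group means of 2 libraries, in panels for genes within 1.3-fold of Nrdc-/-, genes apart from both lines, genes with means within 1.3-fold of Nrdc+/+ and genes with the largest folds. Anpep and Dkk3 show red beside grey and far above blue, Dlk1 red above both, and Cdkn2a red beside blue and far above grey.

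Matrix genes differed member by member. The counts of this and the following lists stand beside 29.3% higher and 31.3% lower among all tested genes. Of 15 tested collagen chains, 9 were higher, 3 lower and 3 not called, with a median of 0.43. Col6a2, a chain of the beaded collagen VI, had 81.2 and 79.8 RPKM in Nrdc-/-WT iMEF, against 9.63 and 9.09 RPKM in Nrdc+/+ iMEF, and Col3a1, the reticular fibre collagen, had 258 and 282 RPKM in Nrdc-/-WT iMEF, against 36.7 and 37.6 RPKM in Nrdc+/+ iMEF. The chains of collagen I, the main fibroblast product, were near each other, with Col1a1 at 401 and 418 RPKM in Nrdc-/-WT iMEF, against 339 and 274 RPKM in Nrdc+/+ iMEF, and Col1a2 at 371 and 394 RPKM in Nrdc-/-WT iMEF, against 353 and 332 RPKM in Nrdc+/+ iMEF. Col1a1 was called by a narrow margin (log2 fold change 0.43, limma adjusted p = 0.00429) and the call ended without the second Nrdc+/+ library, at 0.27, or with its window centred, at 0.37, while Col1a2 was not called (0.16, limma adjusted p = 0.0636). Col18a1, whose cleavage releases endostatin, had 1.03 and 1.06 RPKM in Nrdc-/-WT iMEF, against 41.6 and 40.5 RPKM in Nrdc+/+ iMEF. Of 15 tested basement membrane genes 4 were higher, 6 lower and 5 not called, with a median of -0.36. The share called was 66.7%, near the 60.6% of all genes. Col4a1 had 23.8 and 25.2 RPKM in Nrdc-/-WT iMEF, against 115 and 107 RPKM in Nrdc+/+ iMEF, and 0.00848 and 0.0243 RPKM in Nrdc-/- iMEF, an intermediate level, and Col4a6 had 6.98 and 7.41 RPKM in Nrdc-/-WT iMEF, against 0 reads in Nrdc+/+ iMEF. Sparc, an abundant collagen-binding protein, had 638 and 626 RPKM in Nrdc-/-WT iMEF, against 615 and 579 RPKM in Nrdc+/+ iMEF, and was not called (0.082, limma adjusted p = 0.32), but was called lower with its window centred (-0.46, limma adjusted p = 0.00104). Of 18 tested matrix proteases and inhibitors 10 were higher, 6 lower and 2 not called. Timp2 and Timp1, metalloproteinase inhibitors, were both higher (1.06 and 1.34), and Plau, urokinase, was lower, with 2.22 and 2.29 RPKM in Nrdc-/-WT iMEF, against 35.3 and 35.3 RPKM in Nrdc+/+ iMEF. Of 20 proteoglycans and matricellular proteins 9 were higher, 10 lower and 1 not called, among them Postn, periostin, with 4.35 and 3.61 RPKM in Nrdc-/-WT iMEF, against 55.4 and 55.2 RPKM in Nrdc+/+ iMEF, and Bgn, biglycan, with 454 and 426 RPKM in Nrdc-/-WT iMEF, against 975 and 1006 RPKM in Nrdc+/+ iMEF. Of the folds given in this paragraph as called, the highest limma adjusted p was 0.00429, that of Col1a1.

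Contractile and actin genes were mostly lower. Of 12 tested smooth-muscle-type contractile genes 10 were lower, 1 was higher and 1 was not called, with a median of -1.06, against 31.3% lower among all genes. Acta2, smooth muscle actin, had 184 and 181 RPKM in Nrdc-/-WT iMEF, against 1523 and 1465 RPKM in Nrdc+/+ iMEF, and 52.5 and 52.3 RPKM in Nrdc-/- iMEF. Myl9, the regulatory light chain of non-muscle and smooth muscle myosin, had 11.99 and 10.7 RPKM in Nrdc-/-WT iMEF, against 201 and 199.7 RPKM in Nrdc+/+ iMEF, and 0.199 and 0.0475 RPKM in Nrdc-/- iMEF. In the cells given Nrdc both genes thus lay far below Nrdc+/+ iMEF and above Nrdc-/- iMEF. The log2 fold change against wild type was -3.03 for Acta2 (standard error 0.058, limma adjusted p = 4.87e-09) and -4.12 for Myl9 (standard error 0.17, limma adjusted p = 2.18e-07). Tpm1, a tropomyosin, had 176 and 181 RPKM in Nrdc-/-WT iMEF, against 323 and 309 RPKM in Nrdc+/+ iMEF. Of 25 actin dynamics genes 15 were lower, 2 higher and 8 not called, with a median of -0.57. Tmsb4x, the actin-monomer-binding thymosin beta 4, had 24.5 and 25.2 RPKM in Nrdc-/-WT iMEF, against 409 and 445 RPKM in Nrdc+/+ iMEF, and 0 reads in Nrdc-/- iMEF. Basp1, a membrane-bound protein of the actin cortex, had 18.4 and 14.5 RPKM in Nrdc-/-WT iMEF, against 125 and 115 RPKM in Nrdc+/+ iMEF. The cytoplasmic actins were closer, with Actb at 732 and 711 RPKM in Nrdc-/-WT iMEF, against 920.5 and 868 RPKM in Nrdc+/+ iMEF, and Actg1 at 1297 and 1302 RPKM in Nrdc-/-WT iMEF, against 1421 and 1651 RPKM in Nrdc+/+ iMEF, and neither reached 1.3-fold, but both were called lower with windows centred (-0.55 and -0.84). Of 24 integrin and focal adhesion genes 7 were higher, 12 lower and 5 not called. Itga7, a laminin receptor subunit, had 0.198 and 0.138 RPKM in Nrdc-/-WT iMEF, against 17.99 and 15.8 RPKM in Nrdc+/+ iMEF, whereas Itgb3, the beta subunit of the vitronectin receptor, had 23.2 and 23.1 RPKM in Nrdc-/-WT iMEF, against 0.558 and 0.7797 RPKM in Nrdc+/+ iMEF. Itgb1, the common beta subunit, had 183 and 175 RPKM in Nrdc-/-WT iMEF, against 322 and 345 RPKM in Nrdc+/+ iMEF, and was not called with its window centred (-0.29). Cav1, caveolin 1, had 233 and 218 RPKM in Nrdc-/-WT iMEF, against 97.2 and 103 RPKM in Nrdc+/+ iMEF.

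The promoter of a contractile gene is shown because the CArG box, the site of serum response factor, marks many genes of this class. The box was searched by its consensus on both strands in the 250 bases before the start in RefSeq promoters (GRCm38.p6). It was present in 2 of 10 matched contractile genes, Myl9 and Cnn2, and in 482 of 32851 promoters (1.47%). A gene was counted when any of its promoters held the box, whereas the share is of single promoters, so that the measures are unlike. A match is a description of letters, not of a bound site. Capitals mark the box, and the stretch lies at chr2:156775273-156775342, plus strand, 5′ to 3′.
Myl9: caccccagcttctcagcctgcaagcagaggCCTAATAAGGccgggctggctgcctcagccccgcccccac

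Interferon-stimulated and antigen presentation genes were mostly higher. Of 13 tested interferon-stimulated genes 9 were higher, 2 lower and 2 not called, with a median of 2.51, where 29.3% of all genes were higher. Gbp2 and Gbp3, interferon-induced guanylate-binding proteins, had 96.1 and 97.98 RPKM in Nrdc-/-WT iMEF, against 0.254 and 0.212 RPKM in Nrdc+/+ iMEF for Gbp2 and 24.2 and 26.6 RPKM in Nrdc-/-WT iMEF, against 0.167 and 0.135 RPKM in Nrdc+/+ iMEF for Gbp3. Nrdc-/- iMEF had 19.2 and 18.2 RPKM of Gbp2 and 3.19 and 3.83 RPKM of Gbp3, so that both were highest in the cells given Nrdc. The log2 fold change against wild type was 7.66 (standard error 0.081, limma adjusted p = 4.31e-10) for Gbp2 and 6.002 (standard error 0.12, limma adjusted p = 6.98e-09) for Gbp3. Guanylate-binding proteins are a gene family whose members can share reads. Isg15, a ubiquitin-like protein and 1 of the members chosen after their values were seen, had 12.3 and 11.7 RPKM in Nrdc-/-WT iMEF, against 0.195 and 0.3203 RPKM in Nrdc+/+ iMEF, and 28.98 and 25.4 RPKM in Nrdc-/- iMEF. Ifit3, an RNA-response protein, had 13.3 and 11.9 RPKM in Nrdc-/-WT iMEF, against 0.535 and 0.333 RPKM in Nrdc+/+ iMEF, and 5.17 and 4.14 RPKM in Nrdc-/- iMEF. Stat2, a subunit of the interferon-activated factor ISGF3, lay the other way, with 3.32 and 3.32 RPKM in Nrdc-/-WT iMEF, against 6.51 and 5.94 RPKM in Nrdc+/+ iMEF.

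Promoter stretches of Gbp2, Gbp3, Isg15 and Ifit3 show the letters that the interferon-stimulated response element is known for. The pattern GAAANNGAAA was searched on both strands, where it can overlap itself, in the 250 bases before the start in RefSeq promoters (GRCm38.p6). It was present in 978 of 32851 promoters (2.98%). That share is of single promoters, whereas a gene below counts when any of its promoters holds the pattern, so that the measures are unlike. Of the interferon list, 12 of 13 genes were matched and 7 held it, of which 5 were among the 8 matched genes that were higher (Isg15, Ifit1, Ifit3, Gbp2 and Gbp3), 1 was lower (Stat2) and 1 not called (Bst2). Of 11 matched antigen presentation genes 2 held it, H2-T23, which was higher, and B2m, which was lower. Capitals mark the match, and the stretches are on GRCm38.p6 at chr3:142620574-142620643 (Gbp2, plus strand), chr3:142559969-142560043 (Gbp3, plus strand), chr4:156200845-156200926 (Isg15, minus strand) and chr19:34583343-34583446 (Ifit3, plus strand), each 5′ to 3′.
Gbp2: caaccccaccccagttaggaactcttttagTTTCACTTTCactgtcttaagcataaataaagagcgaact
Gbp3: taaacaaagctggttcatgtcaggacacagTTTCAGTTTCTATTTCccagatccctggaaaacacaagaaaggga
Isg15: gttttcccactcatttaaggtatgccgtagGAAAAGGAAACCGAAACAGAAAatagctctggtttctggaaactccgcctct
Ifit3: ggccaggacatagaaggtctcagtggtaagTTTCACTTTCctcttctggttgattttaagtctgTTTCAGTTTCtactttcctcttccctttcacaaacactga

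Class I major histocompatibility complex molecules show peptides cut by the immunoproteasome and carried by the TAP transporter. Of 12 tested genes of this pathway 10 were higher and 2 lower, with a median of 2.07. Psmb8, an immunoproteasome subunit, had 17.4 and 15.1 RPKM in Nrdc-/-WT iMEF, against 0 reads in Nrdc+/+ iMEF, at least 608-fold higher, and 21.5 and 24.03 RPKM in Nrdc-/- iMEF. Tap2, a TAP subunit, had 14.4 and 15.8 RPKM in Nrdc-/-WT iMEF, against 0.104 and 0.0897 RPKM in Nrdc+/+ iMEF, and 15.2 and 16.2 RPKM in Nrdc-/- iMEF. Psmb8, Tap1, Tap2 and H2-K1 lie together in the chromosome 17 run. Outside that run, Psmb10, another immunoproteasome subunit chosen after its values were seen, had 32.7 and 29.03 RPKM in Nrdc-/-WT iMEF, against 5.105 and 5.57 RPKM in Nrdc+/+ iMEF. B2m, the light chain, was lower, with 638 and 555 RPKM in Nrdc-/-WT iMEF, against 872 and 882 RPKM in Nrdc+/+ iMEF (-0.56, standard error 0.090, limma adjusted p = 0.000592). Calr, calreticulin, had 606 and 626 RPKM in Nrdc-/-WT iMEF, against 343 and 331 RPKM in Nrdc+/+ iMEF, and was called higher (0.87, limma adjusted p = 9.41e-06), but it lies in the chromosome 8 run and stood at -0.21 once its window was centred, against a window median of 1.21. With windows centred, 9 of the 12 genes were higher and 2 lower. Of 11 chemokines and cytokines 6 were higher and 5 lower. Ccl2, a monocyte attractant, had 0.3298 and 0.801 RPKM in Nrdc-/-WT iMEF, against 66.5 and 78.01 RPKM in Nrdc+/+ iMEF, and Cxcl5, a neutrophil attractant, had 25.5 and 25.9 RPKM in Nrdc-/-WT iMEF, against 0 and 0.117 RPKM in Nrdc+/+ iMEF. Cxcl12, which retains haematopoietic cells, had 30.2 and 30.2 RPKM in Nrdc-/-WT iMEF, against 156 and 173 RPKM in Nrdc+/+ iMEF, and Csf1, the macrophage growth factor, had 36.1 and 36.1 RPKM in Nrdc-/-WT iMEF, against 93.1 and 88.7 RPKM in Nrdc+/+ iMEF.

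**Figure D4:**
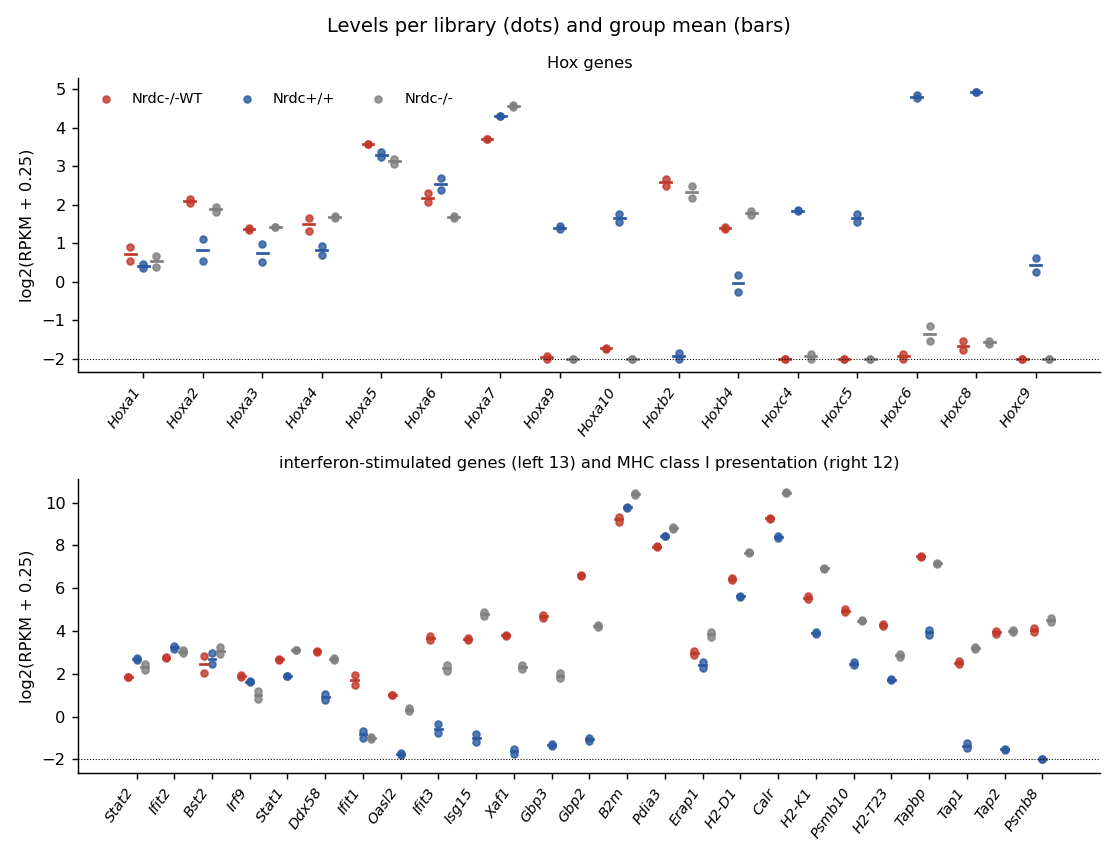
Log2(RPKM + 0.25) of 16 Hox genes and of 13 interferon-stimulated and 12 antigen presentation genes in each library, red for Nrdc-/-WT, blue for Nrdc+/+ and grey for Nrdc-/-, with bars at the group means of 2 libraries. Hoxc genes show red and grey at the floor and blue above it, Hoxb2 the reverse, and most interferon and antigen presentation genes show red above blue.

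Hox genes, which record position along the body axis, differed between and within clusters. Of 16 tested, 5 were higher, 8 lower and 3 not called. Hoxc8 had 0.0408 and 0.0932 RPKM in Nrdc-/-WT iMEF, against 30.4 and 30.2 RPKM in Nrdc+/+ iMEF, and 0.0754 and 0.09598 RPKM in Nrdc-/- iMEF. Hoxc6 had 0 and 0.0214 RPKM in Nrdc-/-WT iMEF, against 27.1 and 28.5 RPKM in Nrdc+/+ iMEF, and 0.0924 and 0.198 RPKM in Nrdc-/- iMEF. Hoxc4, Hoxc5 and Hoxc9, which complete the tested genes of the Hoxc cluster, had 0 reads in both Nrdc-/-WT libraries and between 0.937 and 3.400 RPKM in the Nrdc+/+ libraries. In the Hoxa cluster the posterior genes Hoxa9 and Hoxa10 were lower, while Hoxa2, Hoxa3 and Hoxa4 were higher. Hoxa7, the tested Hox gene with the highest mean level, had 12.9 and 12.9 RPKM in Nrdc-/-WT iMEF, against 19.6 and 19.4 RPKM in Nrdc+/+ iMEF. Both tested Hoxb genes were higher, with Hoxb2 at 6.09 and 5.401 RPKM in Nrdc-/-WT iMEF, against 0 and 0.0293 RPKM in Nrdc+/+ iMEF, and 4.25 and 5.38 RPKM in Nrdc-/- iMEF. Neighbouring Hox genes overlap and share sequence, and reads could be split between them. Of 38 other positional and lineage transcription factors 20 were higher, 14 lower and 4 not called. Prrx2, a paired-related homeobox gene of mesenchyme, had 69.1 and 68.9 RPKM in Nrdc-/-WT iMEF, against 0.655 and 0.422 RPKM in Nrdc+/+ iMEF, and Tbx15, a T-box gene of skin and limb, had 82.6 and 79.4 RPKM in Nrdc-/-WT iMEF, against 8.11 and 8.996 RPKM in Nrdc+/+ iMEF. Snai2, an inducer of epithelial-mesenchymal transition, was lower, with 34.1 and 30.9 RPKM in Nrdc-/-WT iMEF, against 45.6 and 54.2 RPKM in Nrdc+/+ iMEF. Among markers of other cell types, the neural stem cell gene Sox2 had 0 reads in Nrdc-/-WT iMEF, against 4.46 and 3.92 RPKM in Nrdc+/+ iMEF, and Kdr, an endothelial receptor, had 0.00645 and 0 RPKM in Nrdc-/-WT iMEF, against 1.57 and 1.24 RPKM in Nrdc+/+ iMEF. The 3 tested neural markers did not go 1 way, as Sox2 was lower, Tubb3 higher (0.93) and Nes not called (0.047). The summed level of these 3 markers was 35.4 and 38.0 RPKM in Nrdc-/-WT libraries and 38.1 and 33.5 RPKM in Nrdc+/+ libraries. Of 7 macrophage and blood markers Cd14 and Cd68 passed the minimum, with Cd14 at 9.16 and 10.2 RPKM in Nrdc-/-WT iMEF, against 4.41 and 4.84 RPKM in Nrdc+/+ iMEF, and Cd68 at 1.05 and 0.767 RPKM in Nrdc-/-WT iMEF, against 1.99 and 2.47 RPKM in Nrdc+/+ iMEF, and the call of Cd68 as lower ended without the second Nrdc+/+ library, at -0.97.

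Imprinted growth genes and the insulin-like growth factor axis held several all-or-none differences. Of 12 tested imprinted genes 6 were higher, 5 lower and 1 not called. Peg10, a retrotransposon-derived gene, had 258 and 250.4 RPKM in Nrdc-/-WT iMEF, against 1.201 and 0.988 RPKM in Nrdc+/+ iMEF, and 58.1 and 57.7 RPKM in Nrdc-/- iMEF. Cdkn1c, the imprinted inhibitor p57, had 0.0243 and 0 RPKM in Nrdc-/-WT iMEF, against 11.3 and 11.5 RPKM in Nrdc+/+ iMEF. Gnas, the stimulatory G protein subunit, had 127 and 124 RPKM in Nrdc-/-WT iMEF, against 128 and 127 RPKM in Nrdc+/+ iMEF, and was not called. Of 13 genes of the insulin-like growth factor axis 5 were higher, 7 lower and 1 not called. Igfbp3, the main carrier of these factors in serum, had 0 reads in Nrdc-/-WT iMEF, against 19.1 and 19.9 RPKM in Nrdc+/+ iMEF, at least 814-fold lower, while Igfbp2 was higher, as above. Igfbp7 was called by a narrow margin (-0.396, standard error 0.062, limma adjusted p = 0.000505), and the call ended without the first Nrdc+/+ library, at -0.35.

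Growth factor, Wnt and BMP genes were more often higher than lower. Of 25 ligands and receptors of the PDGF, FGF and EGF families 14 were higher, 7 lower and 4 not called. Pdgfra, the PDGF receptor alpha of mesenchymal progenitors, had 55.3 and 53.2 RPKM in Nrdc-/-WT iMEF, against 5.02 and 4.38 RPKM in Nrdc+/+ iMEF, and 55.4 and 51.3 RPKM in Nrdc-/- iMEF. The ligand Pdgfd had 0 reads in Nrdc-/-WT and in Nrdc-/- iMEF, against 9.38 and 10.7 RPKM in Nrdc+/+ iMEF, and the ligand Pdgfb had 0.0965 and 0 RPKM in Nrdc-/-WT iMEF, against 11.7 and 10.3 RPKM in Nrdc+/+ iMEF. Vegfa, with 43.4 and 46.1 RPKM in Nrdc-/-WT iMEF, against 42.5 and 46.1 RPKM in Nrdc+/+ iMEF, and Fgfr1, with 42.2 and 42.7 RPKM in Nrdc-/-WT iMEF, against 38.1 and 36.5 RPKM in Nrdc+/+ iMEF, were not called. Of 20 Wnt pathway genes 14 were higher, 2 lower and 4 not called, with a median of 0.74. Rspo2, an enhancer of Wnt signalling, had 16.99 and 15.5 RPKM in Nrdc-/-WT iMEF, against 0.133 and 0.306 RPKM in Nrdc+/+ iMEF, and 76.6 and 75.2 RPKM in Nrdc-/- iMEF, and Fzd2, a Wnt receptor, had 44.01 and 41.7 RPKM in Nrdc-/-WT iMEF, against 25.96 and 27.99 RPKM in Nrdc+/+ iMEF. Fzd2 lies on chromosome 11 and was no longer called with its window centred, at 0.21. Of 27 TGF-beta and BMP genes 16 were higher, 5 lower and 6 not called, with a median of 0.50. The 5 lower calls became 2 without the first Nrdc-/-WT library and 3 without the first Nrdc+/+ library. Tgfbi, a secreted protein induced by TGF-beta, had 189 and 183 RPKM in Nrdc-/-WT iMEF, against 6.54 and 6.69 RPKM in Nrdc+/+ iMEF, and 212 and 212 RPKM in Nrdc-/- iMEF. Gdf5, a BMP family ligand, had 3.84 and 4.39 RPKM in Nrdc-/-WT iMEF, against 0 and 0.104 RPKM in Nrdc+/+ iMEF, and Grem1, a BMP antagonist, had 124 and 119.8 RPKM in Nrdc-/-WT iMEF, against 97.7 and 103 RPKM in Nrdc+/+ iMEF, and was called higher only with its window centred (0.49). Of 13 Notch and Hedgehog genes 5 were higher, 3 lower and 5 not called, among them Boc, a Hedgehog co-receptor, with 4.52 and 5.22 RPKM in Nrdc-/-WT iMEF, against 0.187 and 0 RPKM in Nrdc+/+ iMEF, Notch3 with 3.49 and 3.35 RPKM in Nrdc-/-WT iMEF, against 0.177 and 0.247 RPKM in Nrdc+/+ iMEF, and Gas1, another Hedgehog co-receptor, with 62.6 and 58.03 RPKM in Nrdc-/-WT iMEF, against 14.6 and 15.3 RPKM in Nrdc+/+ iMEF. Of the Notch and Hedgehog genes 61.5% were called, near the 60.6% of all genes. The log2 fold change was 3.46 for Pdgfra, 5.16 for Rspo2, 4.76 for Tgfbi and 2.99 for Notch3, with standard errors of 0.080, 0.16, 0.054 and 0.15 in that order and a highest limma adjusted p of 6.86e-07, that of Notch3.

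**Figure D5:**
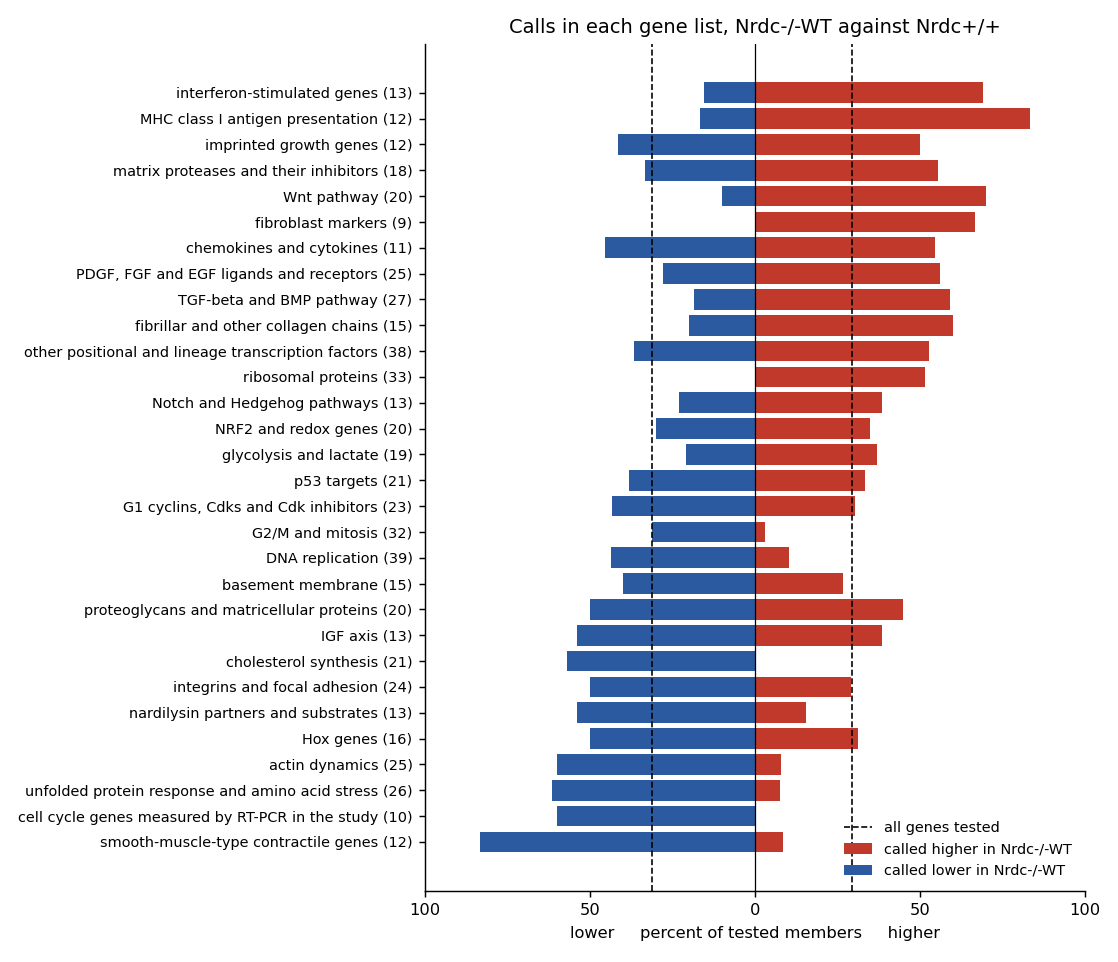
Percent of tested members called higher (red, to the right) and lower (blue, to the left) in Nrdc-/-WT iMEF for 30 gene lists with at least 9 tested members. Dashed lines mark all 11549 genes, at 29.3% higher and 31.3% lower. Antigen presentation, Wnt and interferon genes reach furthest to the right, and contractile and unfolded protein response genes furthest to the left.

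Stress and sterol genes were mostly lower. Of 26 tested genes of the unfolded protein response and the amino acid stress response 16 were lower, 2 higher and 8 not called, with a median of -0.73. Atf4, the transcription factor at the centre of the amino acid response, had 276 and 281 RPKM in Nrdc-/-WT iMEF, against 538 and 579 RPKM in Nrdc+/+ iMEF, and 473 and 487 RPKM in Nrdc-/- iMEF. Hspa5, the chaperone BiP, had 292 and 290.1 RPKM in Nrdc-/-WT iMEF, against 446 and 423 RPKM in Nrdc+/+ iMEF, and 881 and 834 RPKM in Nrdc-/- iMEF. Atf3, as above, and the lipoprotein receptor Vldlr, with 0.993 and 0.963 RPKM in Nrdc-/-WT iMEF, against 12.3 and 13.5 RPKM in Nrdc+/+ iMEF, had the largest folds. The log2 fold change was -1.002 for Atf4 (standard error 0.068, limma adjusted p = 3.61e-06) and -0.58 for Hspa5 (standard error 0.069, limma adjusted p = 9.80e-05). The members called higher were Xbp1 and Herpud1, and Herpud1 lies in the chromosome 8 run. With windows centred 15 were lower and 0 higher. Of 21 cholesterol synthesis genes 12 were lower, 0 higher and 9 not called, with a median of -0.40, and with windows centred 9 were lower. Lss, lanosterol synthase, had 4.42 and 4.98 RPKM in Nrdc-/-WT iMEF, against 15.99 and 15.5 RPKM in Nrdc+/+ iMEF, and Sc4mol (Msmo1), a sterol oxidase, had 30.5 and 29.9 RPKM in Nrdc-/-WT iMEF, against 69.4 and 77.1 RPKM in Nrdc+/+ iMEF. Srebf2, the transcription factor of this pathway, had 90.5 and 93.96 RPKM in Nrdc-/-WT iMEF, against 85.9 and 80.6 RPKM in Nrdc+/+ iMEF, and was not called. Fdps, farnesyl diphosphate synthase, was called by a narrow margin (-0.396, standard error 0.069, limma adjusted p = 0.000938), and the call ended without the first Nrdc-/-WT library, at -0.33, or without the second Nrdc+/+ library, at -0.35.

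Metabolic genes were mixed, and ribosomal protein genes were higher or not called. Of 19 glycolytic genes 7 were higher, 4 lower and 8 not called, so that 57.9% were called, near the 60.6% of all genes. Ldhb, the heart-type subunit of lactate dehydrogenase, had 164 and 153 RPKM in Nrdc-/-WT iMEF, against 11.98 and 11.2 RPKM in Nrdc+/+ iMEF. Pkm2, the muscle-type pyruvate kinase gene, had 782 and 815 RPKM in Nrdc-/-WT iMEF, against 850.0 and 770.1 RPKM in Nrdc+/+ iMEF, and was not called. Gapdh had 662 and 650.1 RPKM in Nrdc-/-WT iMEF, against 391 and 435 RPKM in Nrdc+/+ iMEF, and was called higher (0.67), on chromosome 6, but was not called with its window centred (0.20). Of 20 NRF2 and redox genes 7 were higher, 6 lower and 7 not called, so that 65% were called, also near that share. The extracellular superoxide dismutase Sod3 had 24.4 and 23.9 RPKM in Nrdc-/-WT iMEF, against 1.09 and 0.963 RPKM in Nrdc+/+ iMEF, and Aldh3a1, an aldehyde dehydrogenase, had 12.2 and 10.6 RPKM in Nrdc-/-WT iMEF, against 0 and 0.0499 RPKM in Nrdc+/+ iMEF. Sqstm1, the autophagy receptor p62, had 163 and 171 RPKM in Nrdc-/-WT iMEF, against 268 and 270.3 RPKM in Nrdc+/+ iMEF. Of 33 ribosomal protein genes 17 were higher, 0 lower and 16 not called, with a median of 0.39 and a highest fold change of 1.08, that of Rpl32, with 1864 and 1689 RPKM in Nrdc-/-WT iMEF, against 822 and 862 RPKM in Nrdc+/+ iMEF. Under quantile normalization 11 were higher and 1 lower, and without the first Nrdc+/+ library 18 were higher and 1 lower. Rplp0 had 2293 and 2141 RPKM in Nrdc-/-WT iMEF, against 1323 and 1368 RPKM in Nrdc+/+ iMEF, while Rplp1, the most abundant, had 2114 and 1944 RPKM in Nrdc-/-WT iMEF, against 2129 and 2512 RPKM in Nrdc+/+ iMEF, and was not called. Ribosomal protein genes have many processed pseudogenes with which reads can be shared.

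Cell cycle genes were lower in part. Of 39 tested DNA replication genes 17 were lower, 4 higher and 18 not called, with a median of -0.34. Orc2, an origin recognition subunit on chromosome 1, had 7.98 and 7.02 RPKM in Nrdc-/-WT iMEF, against 22.4 and 21.3 RPKM in Nrdc+/+ iMEF, and Pcna, the sliding clamp, had 104 and 107 RPKM in Nrdc-/-WT iMEF, against 162 and 181 RPKM in Nrdc+/+ iMEF. Gins3 was the member with the highest fold (1.299), but it lies in the chromosome 8 run and was not called with its window centred (0.21). Of 32 genes of G2 and mitosis 10 were lower, 1 higher and 21 not called. The share called was 34.4%, under the 60.6% of all genes. The lower calls were near the 31.3% of all genes, and the higher calls were well under the 29.3%. Ccnb2, cyclin B2, had 17.2 and 15.8 RPKM in Nrdc-/-WT iMEF, against 56.99 and 59.6 RPKM in Nrdc+/+ iMEF, while Ube2c, a ubiquitin-conjugating enzyme of mitotic exit, had 57.4 and 56.6 RPKM in Nrdc-/-WT iMEF, against 57.9 and 54.5 RPKM in Nrdc+/+ iMEF, and was not called. Of 23 G1 cyclins, kinases and inhibitors 7 were higher, 10 lower and 6 not called, with Cdk4 at 107 and 107 RPKM in Nrdc-/-WT iMEF, against 183 and 184 RPKM in Nrdc+/+ iMEF, and Cdkn2c, the inhibitor p18, at 38.6 and 41.6 RPKM in Nrdc-/-WT iMEF, against 9.07 and 8.87 RPKM in Nrdc+/+ iMEF. Cdk4 lies on chromosome 10 and stood at -0.32, under the fold threshold, with its window centred. Of 21 p53 targets 7 were higher, 8 lower and 6 not called, so that 71.4% were called, against 60.6% of all genes. Perp, a desmosomal p53 target, had 44.1 and 45.7 RPKM in Nrdc-/-WT iMEF, against 4.93 and 5.58 RPKM in Nrdc+/+ iMEF, Pmaip1, the death effector Noxa, had 0.248 and 0.0203 RPKM in Nrdc-/-WT iMEF, against 6.33 and 6.28 RPKM in Nrdc+/+ iMEF, and Trp53 itself had 46.1 and 47.6 RPKM in Nrdc-/-WT iMEF, against 46.6 and 49.8 RPKM in Nrdc+/+ iMEF, and was not called.

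A set of cell cycle genes was measured by RT-PCR as well and chosen on these samples, so that its count is not independent evidence of a direction. By RT-PCR the study reported all of them higher in Nrdc+/+ than in Nrdc-/- iMEF. All but Ccnd1 were reported as raised in Nrdc-/-WT iMEF over Nrdc-/- cells with an empty virus, a control not among the libraries. Of these 10 genes 6 were lower in the libraries, 0 higher and 4 not called. Ccnd1, cyclin D1, had 44.7 and 46.5 RPKM in Nrdc-/-WT iMEF, against 197 and 199 RPKM in Nrdc+/+ iMEF, and 32.8 and 35.2 RPKM in Nrdc-/- iMEF. Hmga2, a chromatin protein of embryonic cells, had 8.41 and 8.03 RPKM in Nrdc-/-WT iMEF, against 48.4 and 53.9 RPKM in Nrdc+/+ iMEF, and 1.68 and 1.56 RPKM in Nrdc-/- iMEF. Both stood between the other lines but nearer to Nrdc-/- iMEF, at a log2 fold change against wild type of -2.11 for Ccnd1 (standard error 0.060, limma adjusted p = 3.37e-08) and -2.599 for Hmga2 (standard error 0.086, limma adjusted p = 7.40e-08). Cdt1, a licensing factor, Src, a tyrosine kinase, and Jub, the LIM protein ajuba, were about 2-fold lower (-1.17, -1.04 and -0.999, with a highest limma adjusted p of 2.64e-06). With windows centred Cdt1 stood at -0.56 and Hmga2 at -1.72, while Ccnd1, Src and Jub stood at -2.07, -1.10 and -1.28. The median of the 10 genes was then -0.42, against -0.80 without centring, and 5 were called lower. Cdk1, on chromosome 10, had 32.97 and 32.7 RPKM in Nrdc-/-WT iMEF, against 53.7 and 47.02 RPKM in Nrdc+/+ iMEF, and was lower (-0.61, standard error 0.077, limma adjusted p = 0.000136), and was not called with its window centred (-0.056). Fbxo5, Brca1, Dscc1 and Ccnf were not called, at -0.21, 0.16, -0.27 and 0.11. For Ccnf the 95% interval was -0.13 to 0.35, and for Dscc1, with 1.89 and 1.96 RPKM in Nrdc-/-WT iMEF, against 2.11 and 2.65 RPKM in Nrdc+/+ iMEF, it was -0.72 to 0.19, wide enough to hold a 1.3-fold difference.

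Partners and substrates of nardilysin differed member by member. Of 13 tested, 2 were higher, 7 lower and 4 not called, and with windows centred 4 were lower. App, the amyloid precursor protein whose shedding nardilysin enhances, had 222 and 232 RPKM in Nrdc-/-WT iMEF, against 202 and 191 RPKM in Nrdc+/+ iMEF, and 132 and 128 RPKM in Nrdc-/- iMEF, and was not called (0.21, limma adjusted p = 0.014), but was called lower with its window centred (-0.38, limma adjusted p = 0.00269). Pitrm1, another M16 peptidase, had 38.01 and 36.4 RPKM in Nrdc-/-WT iMEF, against 81.5 and 81.4 RPKM in Nrdc+/+ iMEF, and 35.2 and 36.4 RPKM in Nrdc-/- iMEF, and lies on chromosome 13, where it stood at -0.19 and was not called with its window centred. Ppargc1a, the transcriptional coactivator PGC-1alpha, had 0.00706 and 0.00807 RPKM in Nrdc-/-WT iMEF, against 1.62 and 1.196 RPKM in Nrdc+/+ iMEF. Tbl1xr1, a subunit of the NCoR/SMRT complexes, was higher, with 7.13 and 7.27 RPKM in Nrdc-/-WT iMEF, against 2.74 and 2.08 RPKM in Nrdc+/+ iMEF (1.496, standard error 0.12, limma adjusted p = 1.17e-05). Its deacetylase Hdac3, chosen after its values were seen, had 15.8 and 15.8 RPKM in Nrdc-/-WT iMEF, against 19.9 and 22.7 RPKM in Nrdc+/+ iMEF (-0.42, standard error 0.077, limma adjusted p = 0.00125).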

How the data were processed

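Poly(A) RNA of 3 groups of 2 libraries was sequenced on the Ion Proton platform. Per the labels and the study's methods, the authors aligned reads with STAR, passed those left over to Bowtie2 (local alignment), both on mm9, counted them per gene with featureCounts and made the deposited log2 values of RPKM with edgeR. Tool versions were not given in the sources used here. Strand use in counting was not stated. Each deposited log2 value carries a small floor for 0 reads. The floor was subtracted, which returned RPKM, and multiplied by exon length it gave whole reads within 0.05. Coordinates were matched to an mm9 annotation for 22318 of 22369 gene IDs. Genes of at least 0.5 RPKM on average were fitted with limma 3.58.1 (R 4.3.3, trended empirical Bayes) to log2(RPKM + 0.25) of all 6 libraries, with Benjamini-Hochberg adjustment over 11549 genes, and the fit was tested on simulated data. Residual degrees of freedom were 3. Between replicates, chi-square per gene was 4.02 in Nrdc-/-WT, 8.59 in Nrdc+/+ and 4.07 in Nrdc-/- iMEF, above sampling noise, so that no library was a copy of another. Named genes were Nrd1, the 10 highest and 10 lowest folds, up to 5 a side at the Nrdc-/- level or apart from both lines, 3 a side at the Nrdc+/+ level, the RT-PCR genes, and per list the most abundant and most changed members, from 5 RPKM for those outside the lists; others are said to be chosen after their values were seen or are given as members of a list. The members and the lists were chosen with earlier results of these data known. A member named by these rules is not reported here. Tried were 21 other settings and 3 more chosen after seeing the data, the rescaling to reads over listed genes and the centring of chromosomes and of 20 Mb windows. A fold against 0 reads uses a floor of 3 reads over the group and covers counting error only.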

Additional observations from a re-analysis of the deposited data

How the results depend on the processing

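With 2 libraries a group the tests rest on 3 residual degrees of freedom, and where 1 library of a group is left out the lone sample is assumed to vary like the other groups. Genes called higher in Nrdc-/-WT iMEF numbered between 3211 and 3367 when each library was left out in turn, and genes called lower between 3484 and 3605. A minimum of 5 RPKM left 2081 genes called higher, where fewer genes are tested, and a 2-fold threshold 1450 higher and 1283 lower, by construction. The other alternatives stayed within 1.5 times the counts of 3382 and 3611. The replicate numbers do not pair the libraries, as replicate differences correlated at -0.091, 0.0023 and -0.034 between groups, and a replicate block gave 3394 higher and 3608 lower. Of 148 named genes, 122 kept their direction and side of the threshold with 20 Mb windows centred. A test against 1.3-fold ended the calls of Col1a1, B2m, Fdps, Snai2 and Igfbp7, median centring and scaling to reads over listed genes those of Fdps and Igfbp7, and quantile normalization those of Col1a1 and Igfbp7.

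Some small fold changes turned in sign, and for these the cause was not tested. Under median centring Pkm2 stood at 0.025, Trp53 at 0.0036 and Gnas at 0.024, and under scaling to reads over listed genes Pkm2 stood at 0.043, Trp53 at 0.021 and Gnas at 0.042. Under quantile normalization Cdkn2a stood at -0.093, Col1a2 at -0.057, Sparc at -0.063 and Trp53 at 0.055, and under a TPM-like scaling Echdc2 at -0.026, Ube2c at -0.0076, Vegfa at -0.012 and Smo at -0.021. With chromosomes centred, Col1a2 stood at -0.21, Sparc at -0.26, Pkm2 at 0.15, Fbxo5 at 0.30, Brca1 at -0.18, Ccnf at -0.19, Vegfa at -0.28, Smo at -0.36, App at -0.11 and Nes at -0.19. With 20 Mb windows centred, Sparc stood at -0.46, Calr at -0.21, Pkm2 at 0.23, Fbxo5 at 0.23, Brca1 at -0.29, Dscc1 at 0.084, Ccnf at -0.24, Gnas at 0.022, Vegfa at -0.24, App at -0.38 and Nes at -0.38. Of all these genes only Calr was called without centring, and it was not called with windows centred, where Sparc and App were called lower. With 1 library left out, the following ranges crossed 0, none of them called. Echdc2 lay between -0.11 and 0.11, Pkm2 lay between -0.091 and 0.051, Smo lay between -0.090 and 0.10, Vegfa lay between -0.043 and 0.074, Nes lay between -0.055 and 0.15, Ube2c lay between -0.023 and 0.064, Ccnf lay between -0.0033 and 0.22 and Trp53 lay between -0.088 and 0.0064.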

Other observations

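A run of predicted genes, several of them near-identical copies, on chromosome 14 (chr14:42161898-45182502, mm9, Gm5798 to Gm5624) had 11 of 12 tested genes higher in Nrdc-/-WT iMEF than in Nrdc+/+ iMEF and 1 lower, with a median of 2.52. Nrdc-/-WT over Nrdc-/- iMEF stood at -1.83 there and Nrdc+/+ over Nrdc-/- iMEF at -4.50. Reads of such copies can be split between them, so that the value of any 1 gene is uncertain. On chromosome X the 20 Mb windows from 120 and 140 Mb had medians of 0.68 and 0.73, with -0.58 and -0.45 in Nrdc-/-WT over Nrdc-/- iMEF and -1.45 and -1.31 in Nrdc+/+ over Nrdc-/- iMEF, so that the cells given Nrdc lay between the other lines.

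Tmsb4x was the 1 tested gene with 0 reads in both Nrdc-/- libraries and at least 5 RPKM in every Nrdc-/-WT and Nrdc+/+ library.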
